A study of Drosophila melanogaster with 2 samples.

Results

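The 10 genes described here are hb, Kr, gt, hkb, opa, odd, drm, sob, bowl and btd, regulators of body patterning in the Drosophila embryo, chosen by name out of 13945 protein-coding genes on the chromosome arms. They were examined by ChIP-seq, which sequences the DNA recovered with a chromatin protein, in 1 group of 2 biological replicates. The samples were whole Drosophila melanogaster embryos, 8 to 24 h old, of a strain with an inserted CG9932-eGFP fusion, and an antibody against GFP recovered the chromatin. Whole embryos mix all cell types, so a peak cannot be placed in a tissue, and the labels do not say whether the unfused gene was still present. The measurements are the positions of peaks on the dm6 genome. Each peak has a summit and a signal value given by the authors' peak caller, with no read counts and hence unknown depth.

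The early fly embryo is divided into segments by a cascade of transcription factors. Gap genes such as hb and Kr are switched on in broad bands and set the positions where pair-rule genes such as odd and opa are drawn as stripes. Many of these genes are used again later, hb and Kr in the birth order of neurons and the odd-skipped genes in gut and leg joints, and the embryos sampled here were past the stage at which segments are laid out. Most of the encoded proteins hold C2H2 zinc fingers, small folds that grip a zinc ion and read DNA, and so does the tagged protein. In the longest RefSeq coding sequence, a pattern of paired cysteines and histidines with C2H2 spacing was found 14 times in CG9932, 6 times in hb, 5 times each in sob and bowl, 4 times each in Kr and odd, 3 times each in hkb, opa and btd, and 2 times in drm, whose protein has 88 residues. The pattern was found 0 times in gt, which encodes a basic leucine zipper protein, so gt is a gap gene but not a zinc finger gene.

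Peaks of the conservative set were found near 5 of the 10 genes, and 4 of those were the odd-skipped family of odd, drm, sob and bowl. The conservative set holds peaks that rank alike in both replicates by the irreproducible discovery rate (IDR), and it has 6790 peaks on the arms. Around the 10 genes there were 12 conservative summits in the gene or within 10 kb, 10 of them near the odd-skipped family and 2 near btd. bowl alone had 5 of the 12, and for 7 of the 12 the nearest TSS was that of another gene, not a member. Promoters (up to 500 bp from a transcription start site, TSS) held a summit in 2 of the 10 genes, sob and bowl, where 29.9% of all protein-coding genes had one. The gene itself held a summit in 2 genes, drm and bowl, against 16.4% of all protein-coding genes. Within 10 kb, 5 of the 10 genes had a summit, against 74.4% of all protein-coding genes. No test was run, since the genes were listed by name with earlier results of these data known.

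**Figure D1:**
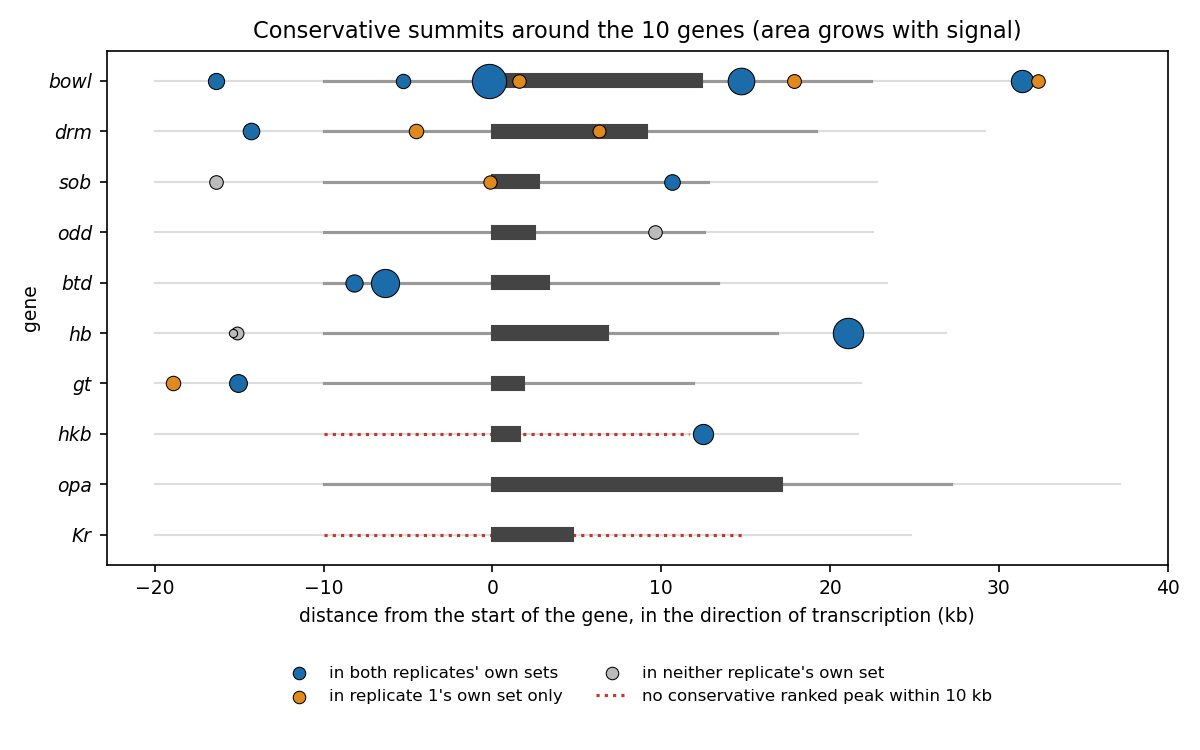
Conservative summits around the 10 genes, by distance from the start of the gene in the direction of transcription (kb). Dark boxes are the genes, medium lines reach 10 kb and light lines 20 kb past them, circles are summits with an area that grows with signal, and circle colour gives the replicates' own sets that hold the peak. bowl has 5 summits within 10 kb, and hb, gt, hkb, opa and Kr have none; the dotted lines of hkb and Kr mark genes with no peak of the conservative ranked list within 10 kb. A summit between 2 genes can be drawn with both.

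bowl carried the strongest peak. Bowl is an odd-skipped family protein needed for the hindgut and for leg joints. Its gene lies on 2L from 3771700 to 3784121 on the plus strand and has 4 TSS. The promoter peak (2L, 3771333 to 3771641) had its summit at 3771497, 203 bp upstream of the nearest bowl TSS, with a signal of 1021 and rank 253 of 6790. Replicate 1 had it at rank 230 of 6017 peaks with a signal of 613.3, and replicate 2 at rank 303 of 4525 peaks with a signal of 396.5. The summits of the replicates lay 0 bp and 5 bp from the conservative summit. Ordered by the strongest promoter summit, bowl was gene 299 of the 4163 genes that had one, between ninaG, an eye oxidoreductase gene, and CG8128, both with signals close to that of bowl (1021 and 1020).

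A second strong bowl summit lay 2315 bp past the end of the gene at 3786436, with a signal of 594.4 and rank 668. It was also found in both replicates' own sets, with signals of 352.7 in replicate 1 and 250.4 in replicate 2 and summits 2 bp away in each. This summit was intergenic and closer to bark, which encodes a protein of epithelial cell corners (-731 bp from its TSS, negative meaning upstream). The other 3 summits were weaker. The one 5322 bp upstream of bowl (signal 129.7) lay 69 bp past the TSS of CG43707 and was in both replicates' own sets. The intronic one (summit 3773278, 1252 bp downstream of a bowl TSS, signal 108.0) and the one 5421 bp past the gene (signal 116.8), which was at the bark promoter (-444 bp), were in the own set of replicate 1 only.

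The sequence under the 2 strong bowl summits differed in composition and in 1 short motif. The windows of 201 bases centred on these summits are shown because they hold the strongest peaks of the odd-skipped family. Capitals mark TGGCGC on either strand, chosen after the windows were seen. The sequences are RefSeq's, Release 6 (dm6 coordinates), plus strand, 2L:3771397-3771597 and 2L:3786336-3786536.
bowl promoter summit: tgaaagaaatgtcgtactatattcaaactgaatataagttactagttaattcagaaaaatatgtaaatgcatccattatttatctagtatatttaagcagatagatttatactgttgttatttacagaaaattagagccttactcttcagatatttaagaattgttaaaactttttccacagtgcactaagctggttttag
bowl downstream summit: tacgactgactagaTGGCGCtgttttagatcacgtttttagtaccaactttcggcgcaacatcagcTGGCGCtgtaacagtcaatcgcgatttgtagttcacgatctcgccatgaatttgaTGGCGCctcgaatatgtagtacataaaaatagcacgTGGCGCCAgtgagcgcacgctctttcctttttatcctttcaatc
The promoter window held 26.4% G and C and no TGGCGC. The downstream window held 45.8% G and C and 4 separate stretches of TGGCGC, the last of them TGGCGCCA, which reads the same on both strands. Among the other 6778 summit windows, 1 had as many as 4 stretches and 10.3% had at least 1, against 8.99% of windows 500 bp away. The longer AGNTGGCGC, a form of the core that the insulator protein CTCF is known to read, also chosen after the windows were seen, matched in 2 places there, and in 2.26% of the other summit windows and 0.779% of the flanking ones. A match describes the letters and does not show that a factor was bound.

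The odd, drm and sob genes, 3 members of the same family within 67.5 kb of 2L, had 5 summits within 10 kb, with signals of 93.73 to 165.7, below the 2 strong bowl summits and spanning those of the other 3 bowl summits (108.0 to 129.7). Of these 5, 1 was in both replicates' own sets, as was 1 of those 3 bowl summits. odd (2L, 3604224 to 3606756, minus strand) is the pair-rule gene that gave the family its name. Its 1 summit within 10 kb (3597144; signal 110.7, rank 4719) was intergenic, 7080 bp past the end of the gene, and was in neither replicate's own set. The strongest ranked peaks under it had signals of 45.01 and 51.69 in replicates 1 and 2. drm (2L, 3539247 to 3548423, plus strand) encodes a short protein that binds the cofactor Lines. One drm summit lay 4534 bp upstream of the gene (3534713, signal 132.9) and was nearer to the TSS of IFT57, 3924 bp past it. The other lay inside drm, in the 5' UTR, 5801 bp from a TSS (3545534, signal 93.73). Both drm summits were in the own set of replicate 1, with signals of 75.44 and 61.57, and outside that of replicate 2, where the ranked peaks had signals of 49.66 and 37.84.

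sob (2L, 3578013 to 3580769, minus strand) encodes a close relative of Odd and Bowl. Its promoter summit (3580899) lay 130 bp upstream of the TSS with a signal of 102.0 and rank 5073. The replicate signals were 59.5 in replicate 1, where the peak was in the own set, and 40.55 in replicate 2, where it was not. A second sob summit, 7863 bp past the end of the gene (3570150, signal 165.7), was in both replicates' own sets with signals of 93.63 and 69.23. It was nearer to the TSS of CG43815 (-6060 bp) than to that of sob (10619 bp). Thus sob and bowl both had a promoter summit, but that of bowl stood at rank 253 and that of sob at rank 5073 of the same list.

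The sob promoter window and the odd window, on the same coordinates (2L:3580799-3580999 and 2L:3597044-3597244, plus strand), are shown as the other promoter summit of the family and the lone summit near odd. Capitals mark GAGAG, the GAGA element, on either strand in the sob window; the odd window held none.
sob promoter summit: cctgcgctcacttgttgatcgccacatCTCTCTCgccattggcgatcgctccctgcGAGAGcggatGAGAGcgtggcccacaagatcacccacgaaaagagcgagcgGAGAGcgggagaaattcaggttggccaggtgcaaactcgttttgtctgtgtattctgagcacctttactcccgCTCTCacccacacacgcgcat
odd downstream summit: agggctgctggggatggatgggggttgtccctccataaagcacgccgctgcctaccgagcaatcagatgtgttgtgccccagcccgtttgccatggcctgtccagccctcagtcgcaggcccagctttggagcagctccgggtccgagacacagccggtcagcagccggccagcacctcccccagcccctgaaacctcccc
The sob window held 57.2% G and C and 5 stretches of GAGAG. The odd window held 66.2% G and C. The median of the other summit windows was 38.3%, and over all 12 member windows it was 39.5%, with a range of 26.4 to 66.2%. GAGAG was in 2 of the 12 member windows, those of the sob promoter and of the drm gene, and in 23.6% of the other summit windows and 23.6% of the flanking ones.

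**Figure D2:**
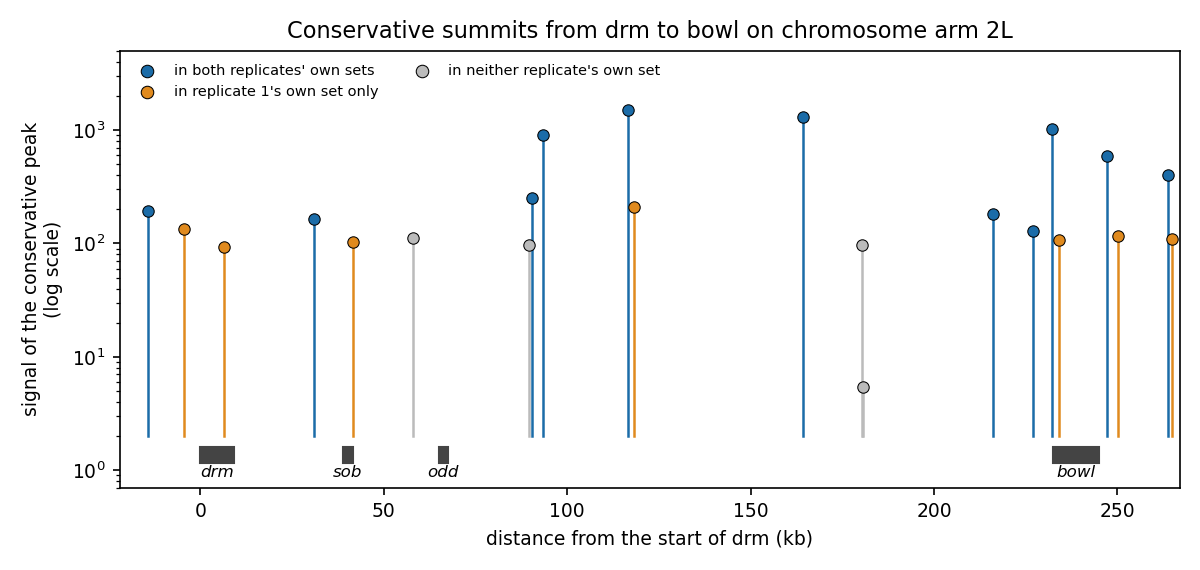
Signal of conservative peaks (log scale) by distance from the start of drm (kb) on 2L, from 20 kb before drm to 20 kb past bowl, with dark boxes for the 4 odd-skipped family genes. The 4 summits from drm to the end of odd reach a signal of at most 165.7, while the bowl promoter reaches 1021; the taller peaks between odd and bowl lie at other genes.

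btd had 2 summits within 10 kb, both on the side of its neighbour. Btd is an Sp-family zinc finger protein of the head segments. The gene lies on X from 9694186 to 9697558 on the plus strand. The stronger summit (9687800; X, 9687655 to 9687929) was intergenic, 6386 bp upstream of btd, with a signal of 670.9 and rank 531. Each replicate's own set held it, at rank 505 with a signal of 405.8 in replicate 1 and at rank 603 with 266.1 in replicate 2. The weaker one (9686015; signal 213.6) was also in both, with signals of 115.7 and 92.34. Both were nearer to a TSS of nej (-734 and -348 bp) than to btd. The weaker one lay at a nej promoter, within the nej gene. The gene nej encodes the histone acetyltransferase CBP and is read away from btd. No conservative summit lay at the btd promoter.

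The window of the stronger btd summit (X:9687700-9687900, plus strand, same build) is shown because it is the second strongest of the 12. Capitals again mark TGGCGC on either strand.
btd upstream summit: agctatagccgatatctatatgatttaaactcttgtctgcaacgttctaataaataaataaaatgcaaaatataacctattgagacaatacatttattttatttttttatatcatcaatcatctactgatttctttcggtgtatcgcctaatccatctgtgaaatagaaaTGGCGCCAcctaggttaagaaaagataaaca
It held 29.4% G and C and 1 stretch, TGGCGCCA, with 1 match to AGNTGGCGC. Over the 12 member windows TGGCGC was in 6 and AGNTGGCGC in 2, the downstream bowl window and this one. Their shares in the other summit windows were 10.3% and 2.26%. Both were chosen after the windows were seen, so their counts cannot show a difference between the members and the other summits. The DNA replication-related element TATCGATA was in 0 of the 12 windows, in 5.44% of the other summit windows and in 0.53% of flanking windows. Published site cores of the members' own proteins were also searched. The Odd-skipped family site ACAGTAGC, the Kruppel site AAGGGTTA, the Giant site TTACGTAA and the Sp and Buttonhead GC box GGGCGG were in 0 of the 12 windows each. In the other summit windows their shares were 0.339%, 0.531%, 0.236% and 6.99%, and in flanking windows 0.304%, 0.389%, 0.234% and 8.36%. TTTTTT, a Hunchback site, was in 4 of the 12 windows, 40.8% of the others and 31.9% of flanking windows. The Zelda site CAGGTAG was in 0 of the 12, 0.915% of the others and 1.22% of flanking windows. For the motifs found in 0 of the 12, these shares are so low that 12 windows are too few to show a difference.

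hb, gt, hkb, opa and Kr had no conservative summit in the gene or within 10 kb. hb (3R, 8690980 to 8697822, minus strand) encodes Hunchback, an anterior gap factor that also times neuron birth, and has 2 TSS. Its nearest conservative summits were 14240 bp past the gene (signal 790.5), at the promoters of CG11755, CG8043 and Unc50, and 15132 bp upstream (signal 91.87), at the promoter of CG8112. A peak at an hb promoter was in the own set of replicate 1 only, with its summit at 8694315, 285 bp downstream of the inner TSS, and a signal of 53.33 (rank 5497 of 6017). The ranked peak there had a signal of 20.31 in replicate 2. In the conservative ranked list, where peaks outside the set are kept too, the strongest hb promoter peak had a signal of 74.03 and a global IDR of 0.6153, where the set needs an IDR of about 0.01.

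gt (X, 2427113 to 2428967, minus strand) had its nearest conservative summit 15042 bp upstream (signal 232.2), at the promoter of tko, a mitochondrial ribosomal protein gene. The strongest ranked peak at the gt promoter lay at -5 bp from the TSS with a signal of 18.09 and an IDR of 0.8262. opa (3R, 4852813 to 4869979, plus strand), the fly relative of the Zic genes, is the longest of the 10 genes with 17167 bp, and no conservative summit lay within 39533 bp of it. The ranked list had 20 peaks in opa. The strongest (4865527; signal 77.55) lay in an intron 12714 bp past the TSS with an IDR of 0.01194, and it was in the optimal set, the longer of the sets made from both replicates. It was in neither replicate's own set; the ranked peaks under it had signals of 44.95 and 33.19.

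hkb and Kr lay in stretches with no peak in the conservative ranked list, where even weak peaks are kept. hkb (3R, 4345015 to 4346646, minus strand) encodes a gut gap factor. No peak of the conservative ranked list lay within 10 kb of it, and the stretch without a ranked summit around it was 44629 bp long. The ranked list of replicate 1 left 44644 bp empty there and that of replicate 2 left 22352 bp, with a ranked summit 3687 bp past the gene. The first conservative summit, 10856 bp past hkb (signal 315.1), was at the promoter of CG9776. Kr (2R, 25226611 to 25231394, plus strand) encodes Kruppel, the gap factor of the middle of the embryo, and lies within the longer gene CG9380 on the other strand. Around Kr the conservative ranked list left 137209 bp without a summit, the longest such stretch on 2R, and the lists of replicate 1 and replicate 2 left 137292 and 137116 bp. The median spacing of ranked summits over the arms was 666 bp, and 129 stretches were longer than 40 kb. Of all protein-coding genes, 3.66% had no ranked peak within 10 kb. The cause of these empty stretches was not tested, and a missing peak at Kr or hkb does not show that the gene was free of the protein. Among genes with a ranked peak within 10 kb, a comparison added after the data were seen, 2 of 8 members had a promoter summit, against 31.0% of protein-coding genes, and 5 of 8 had a summit within 10 kb, against 77.3%.

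**Figure D3:**
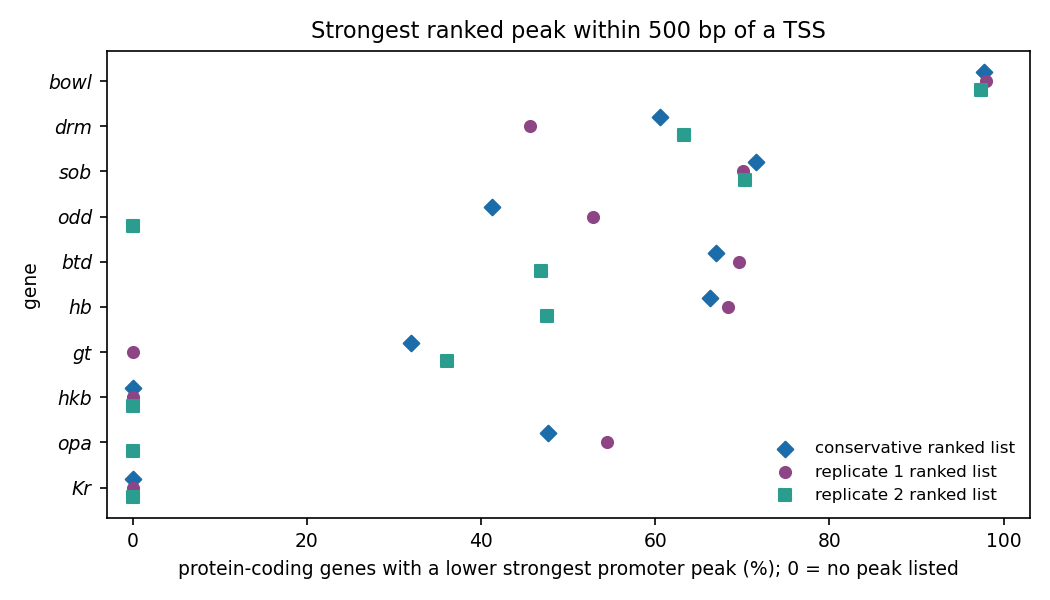
Share of protein-coding genes (%) whose strongest ranked peak within 500 bp of a TSS was lower than that of each member, in the conservative ranked list and in the list of each replicate; 0 means that no peak was listed. bowl stands above 97.8%, 98.0% and 97.4% of genes in the 3 lists, sob above 71.6%, 70.1% and 70.3%, and hkb and Kr at 0.

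Over the 10 promoters, the strongest ranked peaks put bowl far above the rest. Its promoter signal was higher than that of 97.8% of protein-coding genes in the conservative ranked list, 98.0% in replicate 1 and 97.4% in replicate 2. sob stood above 71.6% of genes, and above 70.1% and 70.3% in the replicates. For btd, hb and drm the shares in the conservative ranked list were 67.0%, 66.3% and 60.5%, but the replicates did not order them alike. hb and btd stood above 68.3% and 69.6% of genes in replicate 1 and 47.6% and 46.9% in replicate 2, and drm above 45.6% in replicate 1 and 63.3% in replicate 2. opa, odd and gt stood above 47.7%, 41.3% and 32.0%, and each of the 3 had no promoter peak listed in 1 replicate. The order among these lower genes therefore changed between replicates, while bowl was first in both.

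Of the 12 summits, 6 had a peak that overlapped peaks of both replicates' own sets by at least 1 bp, where 58.8% of all conservative peaks did. A further 5 were in the set of replicate 1 only, 0 in that of replicate 2 only, and 1, near odd, in neither. The 12 had a median signal of 131.3, against 160.7 over all conservative peaks, and 3, 2, 6 and 1 of them fell in the quartiles of signal from strongest to weakest. In those quartiles 3, 2, 1 and 0 of them were in both replicates' own sets, while the shares over all peaks were 99.4%, 91.1%, 37.2% and 7.54%.

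**Figure D4:**
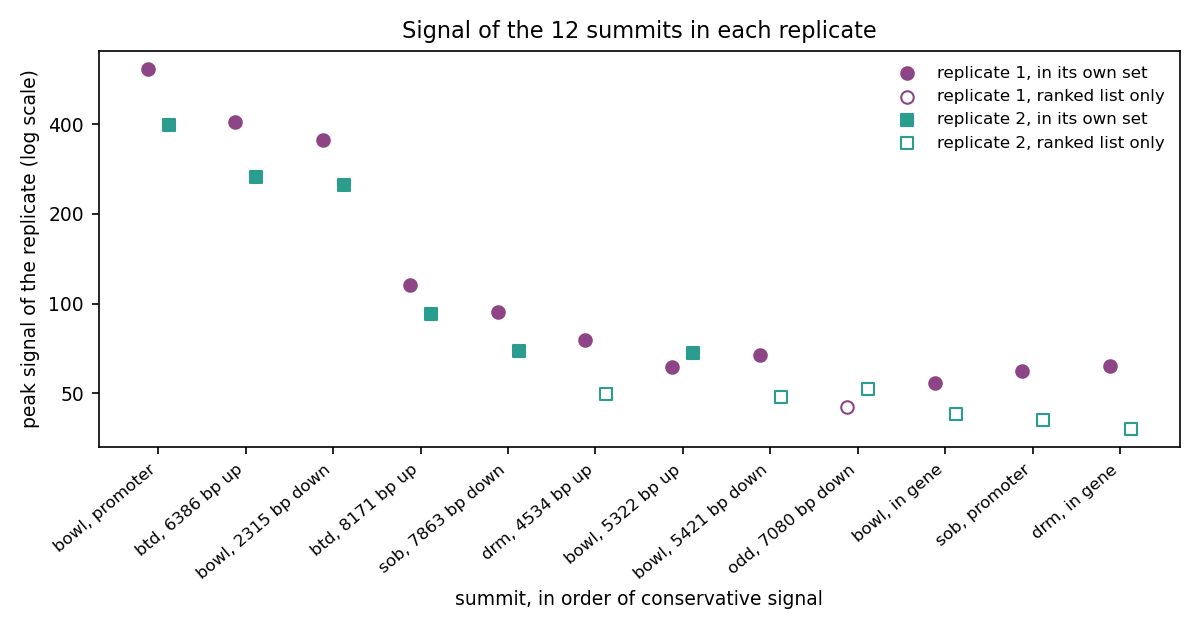
Peak signal in replicate 1 and replicate 2 (log scale) of the 12 conservative summits within 10 kb of a member, in order of conservative signal. Filled points are in the replicate's own set and open points only in its ranked list. The bowl promoter peak is highest in both (613.3 and 396.5), and the open points are those of 6 summits with replicate 2 signals of 37.84 to 51.69, 1 of which, near odd, is also open in replicate 1.

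Positions near the limits of the windows show how the counts were reached. The promoter summit farthest from a TSS was that of bowl at 203 bp, and the nearest one beyond 500 bp was the intronic bowl summit at 1252 bp. The farthest summit within 10 kb was that of btd at 8171 bp, and the nearest beyond it was that of hkb at 10856 bp. Of the 12 summits, 5 had a member's TSS as the nearest protein-coding TSS and 7 that of another gene, and 5 lay at a promoter, 5 in intergenic sequence, 1 in an intron and 1 in a 5' UTR. In the 262.5 kb of windows around the members there were 4.571 summits per 100 kb, against 5.072 over the chromosome arms.

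**Figure D5:**
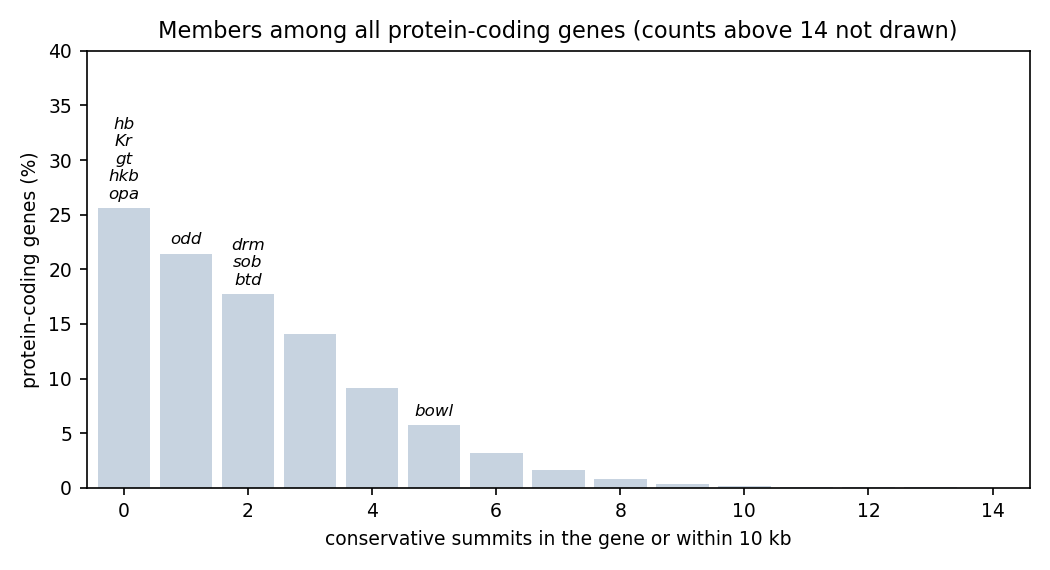
Share of protein-coding genes (%) by the number of conservative summits in the gene or within 10 kb, with the 10 members written above the bar of their count. hb, Kr, gt, hkb and opa stand at 0 with 25.6% of genes, odd at 1, drm, sob and btd at 2, and bowl at 5, a count that 12.1% of genes reach or pass.

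A further 53 genes in 6 lists were taken from the segmentation network, its regulators and C2H2 relatives of the members, CG9932 among them. Of the 53, 19 had a promoter summit, a share of 35.8% against 29.9% of all protein-coding genes. Within 10 kb 40 of the 53 had a summit, a share of 75.5% against 74.4%. The lists hold 7 to 12 genes each, and differences between them were not tested. Among the other gap genes 2 of 8 had one, ems (signal 79.28, in neither replicate's own set) and cnc (363.6), and 5 of 8 had a summit within 10 kb (not kni, tll and oc). Of the other pair-rule genes 1 of 8 had one, hry (signal 166.9), and 4 of 8 had a summit within 10 kb (not eve, run, prd and D). Maternal genes had 5 of 10, nanos (890.5), bcd (385.8), stau (381.9, in the own set of replicate 1 only), pum (243.0) and exu (173.3). Within 10 kb, 9 of the 10 maternal genes had a summit (not trk). Segment polarity genes had 6 of 12, nkd (683.5), ptc (190.4), smo (177.9), arm (129.3), fu (120.0) and en (90.16). Of these, arm was in neither replicate's own set, fu in that of replicate 1 only and en in that of replicate 2 only. Within 10 kb, 8 of the 12 had a summit (not hh, gsb, gsb-n and ci). The gene ci lies on chromosome 4, where the conservative ranked list held only 19 peaks, so a missing peak there does not show that ci was free of the protein. Among regulators and corepressors 8 of 8 had a summit within 10 kb and 4 of 8 had one at a promoter. These 4 were gro (977.0), whose protein is a corepressor for Odd and Hkb among others, lin (435.6), whose product Drm binds, Mi-2 (90.84) and Gug (81.39). The Mi-2 promoter peak was in the own set of replicate 1 only. C2H2 relatives of the members had 1 of 7, which was CG9932 itself (signal 303.9, summit at -150 bp from its TSS), and 6 of 7 had a summit within 10 kb (not Sp1). The strain carried an inserted fusion of CG9932, and whether the insertion affected the peak at this gene was not tested.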

How the data were processed

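ChIP-seq peak lists of 2 biological replicates were used, and reads and alignments were not used here. Per the deposited file descriptions, the lists are on dm6 and derive from the replicates' alignments; neither the aligner nor the peak caller is named there. The signal of a peak and its score (the IDR score, at least 830 in each set) are the authors' values, as deposited, and so is the -log10 of the global IDR in the conservative ranked list. In the series files, 30 further value columns were not used. Labels give sonicated fragments of 200 to 800 bp. The embryo age was taken from the sample source name, since the separate age label held a value that cannot be an embryo age. Depth per library is unknown. Labels give the replicates separate biosamples.

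Summits (counted from 1) were placed on genes of Ensembl release 115 (BDGP6.54), which shares dm6 coordinates; gene counts took protein-coding genes on 2L, 2R, 3L, 3R, 4 and X. Replicate signals are those of the strongest overlapping peak of the replicate's own ranked list. Motif windows were 201 bp long. Flank windows were centred 500 bp from a summit, and those whose centre had a summit within 200 bp were dropped. Members, lists and motifs were chosen with earlier results of these data known, so counts stand beside those of all genes and no test was run. Named genes were the members, genes nearest to their summits (also to the nearest ones beyond 10 kb), those listed partners that had a promoter summit or, named after their values were seen, no summit within 10 kb, and the genes next to bowl in promoter signal. The symbols of 2 listed genes were changed to current ones (HDAC1, Gug). Position rules were tested on simulated peaks. Tools were pandas 2.3.3, numpy 2.4.6 and matplotlib 3.10.9 under Python 3.11.15.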

Additional observations from a re-analysis of the deposited data

How the results depend on the processing

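Each of the 6 counts was recomputed under other rules, which gave 44 values, 27 of them within 1.5 times the reported count. With promoters of 200 bp, 1 member had a promoter summit and the number of such summits was 1. That member was sob, since the bowl summit lay 203 bp from its TSS and so dropped out. Within 5 kb, 3 members had a summit and there were 6 summits, and within 20 kb the counts were 8 members and 22 summits. Among peaks at or above the median signal, 1 member had a promoter summit (1 summit), 0 had one in the gene and 3 had one within 10 kb, with 5 summits. Giving each summit to the nearest TSS left 5 summits at 4 members, and both btd summits went to nej. With 1 replicate left out, by taking the other's own set, 1 to 3 members had a promoter summit (1 to 3 summits), 0 to 3 had one in the gene, and 3 to 5 had one within 10 kb, with 6 to 14 summits; the low counts were those without replicate 1 and the high ones those without replicate 2. bowl had a promoter summit with either replicate left out. No paired analysis was possible because the series holds 1 group. Depth limits what a missing peak shows, and it is not known.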

Other observations

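Between odd and bowl, 164.9 kb of 2L held 11 conservative summits, among them the bowl promoter summit and the one at CG43707 that lies within 10 kb of bowl. The strongest of the 11 (3655825; signal 1505, rank 105) lay in an intron of for, the cGMP-dependent kinase gene foraging, 1128 bp from a TSS of for, and the next (3703463; signal 1302) at the promoter of CG2816. Another (3632499; signal 896.7) was at the promoter of for. These 3 peaks were in both replicates' own sets. The 67.5 kb from drm to the end of odd, a shorter stretch, held 4 summits, and the strongest of them had a lower signal, 165.7. The counts of the 2 stretches are not compared, since their lengths differ.

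Sequences of 7 bases that were most raised at the other summits over their flanks were in at most 1 of the 12 member windows each. The first was CTATCGA, in 8.16% of the other summit windows and 1.4% of flanking windows, and in 0 of the 12. ATCGATA was in 11.2% of summit and 2.45% of flanking windows and in 0 of the 12. ACAGTGG, in 8.11% of summit and 2.55% of flanking windows, was in 1 of the 12, that of drm upstream of the gene. Of the 10 sequences with the highest ratio among those in at least 2% of summit windows, 8 were in none of the 12. Each of the 10 was in only 3.08 to 11.2% of the other summit windows. With such shares, 12 windows are too few to show whether the members differ from the other summits. Several of the 10 sequences also overlap one another, so their absences are not separate observations.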
